A study of Rattus norvegicus with 6 samples.

Results

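ATP-dependent chromatin remodellers were followed in rat hippocampal cultures after chemical long-term potentiation (cLTP). The members were rows of the deposited table averaging 10 or more normalised reads over the 6 libraries. Their symbols matched a pattern for subunits of the BAF, PBAF, ISWI, INO80, SRCAP or TIP60 complexes. It also took the CHD proteins Chd1, Chd2, Chd5, Chd6, Chd7, Chd8 and Chd9. The related ATPases Atrx, Hells, Smarcad1 and Smarcal1 completed it. The pattern matched 46 of 32883 rows, and all 46 reached that mean. They carry 45 symbols, because Atrx has 2 rows.

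Poly-A RNA came from cultures labelled as primary neurons of Wistar pups, taken at postnatal day 0 and grown until day 13 to 15 in vitro. The 3 cLTP cultures were given forskolin at 50 µM, which activates adenylyl cyclase, together with rolipram at 50 nM, which blocks cyclic AMP breakdown by Pde4 enzymes, and picrotoxin at 200 µM, which blocks GABA-A receptors. The 3 DMSO cultures were given only the solvent. The labels name no genotype, allele or strain that separates the groups, and the time between stimulation and lysis is not known here. The labels' library text also names sorted cells of operated animals, which goes against the culture labels and was set aside.

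Remodellers use the energy of ATP to slide, eject or exchange nucleosomes and so set which DNA is open to transcription factors. Each complex pairs a motor ATPase with subunits that fix where it binds, and several of these subunits exist as alternatives encoded by related genes. In the neuronal lineage the BAF complex is known for swapping such alternatives as progenitors become neurons, and mutations in several of the genes below cause disorders of brain development in humans.

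The libraries held 10668973 to 12776185 reads. Fos, Npas4 and Nr4a1, genes that neurons switch on after activity, were 15.0, 39.2 and 27.5 times higher in cLTP than in DMSO cultures (limma adjusted p = 0.000201, 0.00631 and 1.12e-05), although Npas4 lost its call with the culture number as a block (adjusted p = 0.0737), without DMSO culture 2 (0.0513) and without both libraries of culture 3 (0.0867). Neuronal markers summed to between 41358 and 53219 in cLTP and between 41944 and 51344 in DMSO libraries, and astrocyte markers to between 132858 and 186184 in cLTP and between 115241 and 179473 in DMSO libraries. Within these lists 1 of 7 astrocyte markers was lower after cLTP (Sox9, at 1035, 883 and 978 in cLTP and 1774, 1896 and 1194 in DMSO libraries), and 1 of 4 markers of excitatory neurons was higher (Slc17a6, at 550.1, 428 and 712 in cLTP and 287, 248 and 330 in DMSO libraries). The 7 microglial markers found were near 0 in cultures 1 and 2 of both groups (sums of 3.38 and 5.18 in cLTP, 18.1 and 7.90 in DMSO) and summed to 682 in cLTP culture 3 and 656 in DMSO culture 3. Aif1 and Cx3cr1 were at 0 in cultures 1 and 2 of both groups. Markers of mural cells and fibroblasts summed to 967 to 1027 in cLTP and 1139 to 1298 in DMSO libraries, with 1 of 6 genes past the threshold (Pdgfrb, lower). Gfap, an astrocyte marker, was at 62521 to 101520 over the 6 libraries, so the RNA was not of neurons alone. The part of these markers in the results below was not tested. In bulk RNA, fewer cells of a type cannot be told apart from less RNA per cell.

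After cLTP the remodeller transcripts split in both directions. Of the 46 members, 4 rose, namely Chd7, Baz1a, Smarca5 and Chd1, and 4 fell, namely Arid1a, Baz2a, Chd8 and Bptf (limma, Benjamini-Hochberg adjusted p under 0.05 over 17315 tested genes). That is 8.7% of members in each direction and 17.4% in all, beside 5.71% of all tested genes higher, 3.31% lower and 9.02% in all. Among tested genes with a mean of at least 10, as the members have, 6.68% were called higher and 4.02% lower. The members' median level was 833 normalised reads, and that of the tested genes 195. The median log2 fold change was -0.07 over the members and 0.00 over all tested genes. All 8 calls held in edgeR (4 higher and 4 lower members, beside 6.9% and 4.59% of its tested genes) and in DESeq2 (4 and 5, beside 6.91% and 3.64%). They held as well with the block, when both libraries of culture 3 were left out, and after scaling to equal totals or quantile normalization. Of the 8, 5 held without any 1 of the 6 libraries, and without cLTP culture 2 the counts were 2 higher and 7 lower members.

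**Figure D1:**
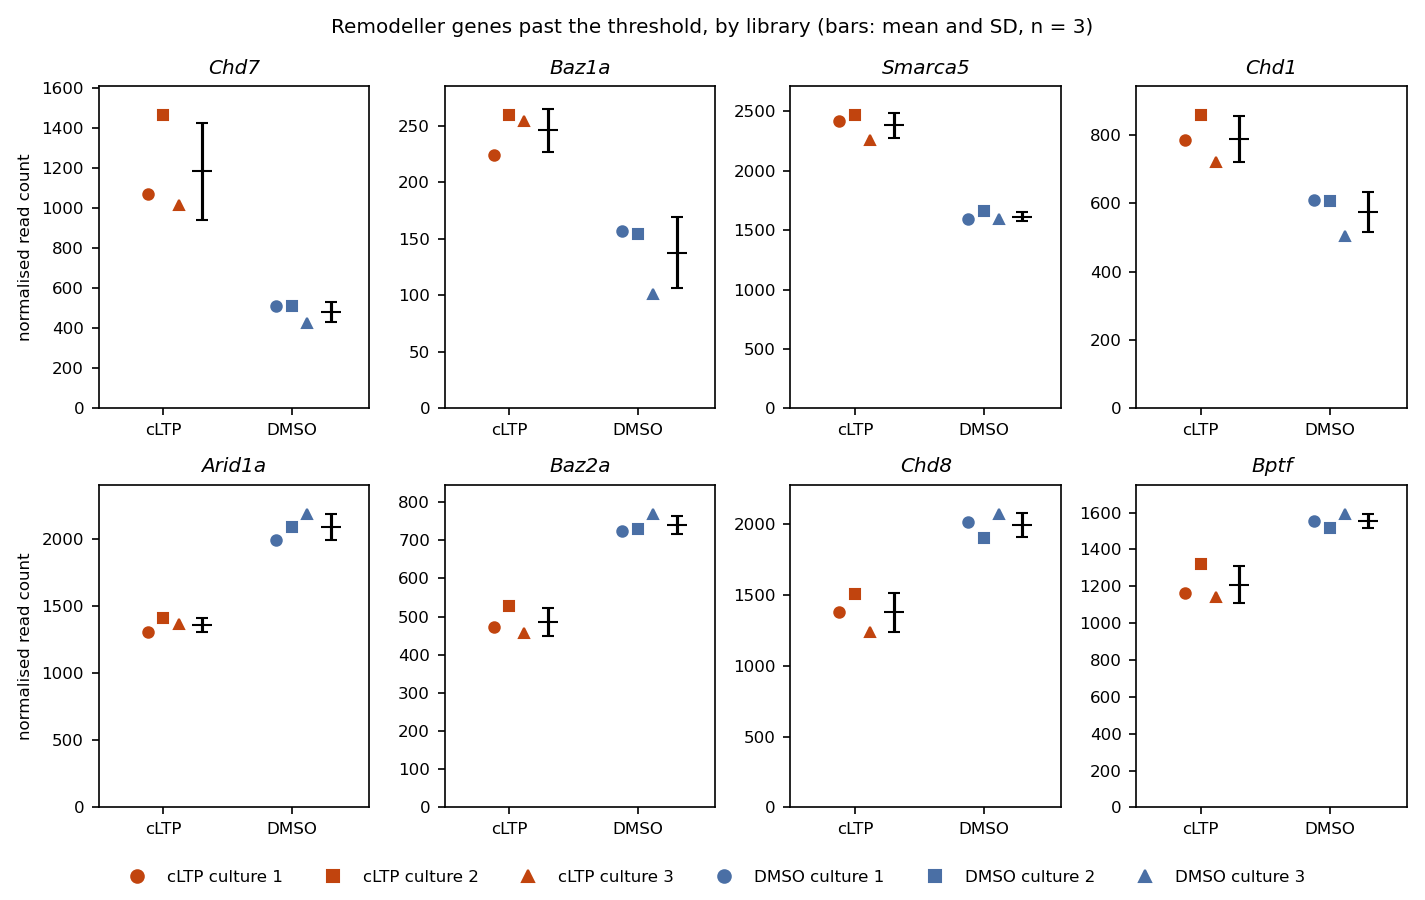
Normalised read counts (vertical axis, linear from 0) of the 8 remodeller genes past the threshold, in 3 cLTP libraries (left) and 3 DMSO libraries (right) per panel; marker shapes give the culture number, and bars give the mean and SD. In every panel the groups are apart: the upper row shows the genes that rose after cLTP, with Chd7 at 1017 or more in cLTP and 512 or less in DMSO, and the lower row the genes that fell.

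The ISWI group, with 7 members, held 4 of the 8 changes. These were 28.6% higher and 28.6% lower, beside 5.71% and 3.31% of all tested genes. Of 7 further ISWI subunits outside the pattern, 0 were higher and 1 was lower. The ISWI motor ATPases are Smarca5 (SNF2H) and Smarca1 (SNF2L), which space nucleosomes into regular arrays. Smarca5 (ENSRNOG00000018149) had 2415, 2466 and 2259.6 normalised reads in cLTP cultures 1, 2 and 3, against 1593, 1657 and 1590.3 in the DMSO cultures. The lowest cLTP library lay far above the highest DMSO library, and the 1.47-fold difference passed the test (log2 fold change 0.56, SE 0.07, limma adjusted p = 0.00132). Smarca1, the other motor, averaged 358 ± 24.9 in cLTP and 401 ± 45.8 in DMSO cultures (SD, n = 3 each). Its groups overlapped, and the log2 fold change lay between -0.40 and 0.08 (95% interval, limma adjusted p = 0.459). With the block and equal totals together it passed as lower (limma adjusted p = 0.0119).

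Partner subunits of ISWI moved in opposite directions. Baz1a (ENSRNOG00000006828), the ACF1 partner of Smarca5, had 224, 259 and 254 normalised reads in cLTP cultures and 157, 155 and 101 in DMSO cultures. All cLTP libraries lay above all DMSO libraries, and DMSO culture 3 was the lowest. Baz1a rose 1.81-fold (log2 fold change 0.86, SE 0.17, limma adjusted p = 0.0147), a call lost without cLTP culture 2 (adjusted p = 0.063). Baz2a (ENSRNOG00000053881), the TIP5 subunit that brings Smarca5 to ribosomal DNA for silencing, had 472, 529 and 458 in cLTP cultures and 724, 730.4 and 768 in DMSO cultures. It fell to 0.656-fold with no overlap (log2 fold change -0.61, SE 0.08, adjusted p = 0.00208). Bptf (ENSRNOG00000047296), the large subunit of the NURF complex that reads methylated histone H3, had 1161, 1322 and 1140.5 in cLTP cultures and 1553, 1516 and 1590.3 in DMSO cultures. Its groups were also apart, and it fell to 0.776-fold (adjusted p = 0.0225; 0.000141 with the block), but the call was lost without cLTP culture 1 (0.111), cLTP culture 3 (0.0690), DMSO culture 1 (0.0910) or DMSO culture 2 (0.0669). Baz1b, known as the Williams syndrome transcription factor, averaged 1781 ± 56.4 in cLTP and 1871 ± 106 in DMSO cultures. Baz2b averaged 503 ± 74.8 in cLTP and 466 ± 18.6 in DMSO cultures. Neither passed at the deposited scaling, and the groups overlapped for both. Baz1b passed as lower with the block and equal totals together (limma adjusted p = 0.00731).

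The promoters of Smarca5 and Arid1a are shown because they are the members with an entry that had the lowest p-value in each direction. Each window runs from 250 bases before to 50 bases after the start annotated by RefSeq (build GRCr8), and capitals mark TGACG or its reverse complement CGTCA, the short form of the cyclic AMP response element TGACGTCA that CREB proteins bind. Smarca5 is at chr19:44176045-44176344 on the plus strand and Arid1a at chr5:151265337-151265636 on the minus strand.
Smarca5: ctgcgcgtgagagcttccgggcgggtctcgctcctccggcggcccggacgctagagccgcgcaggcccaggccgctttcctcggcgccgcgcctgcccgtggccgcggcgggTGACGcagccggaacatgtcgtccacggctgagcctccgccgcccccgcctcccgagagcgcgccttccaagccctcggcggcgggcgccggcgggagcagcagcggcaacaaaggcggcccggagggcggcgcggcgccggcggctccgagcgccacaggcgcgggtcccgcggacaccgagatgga
Arid1a: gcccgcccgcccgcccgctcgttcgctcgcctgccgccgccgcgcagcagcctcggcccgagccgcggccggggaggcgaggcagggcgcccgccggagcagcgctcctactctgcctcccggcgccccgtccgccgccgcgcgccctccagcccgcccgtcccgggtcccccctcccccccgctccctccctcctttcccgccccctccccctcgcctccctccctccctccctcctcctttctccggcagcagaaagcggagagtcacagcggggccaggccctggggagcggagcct
The full element was in 0 of the 39 member promoters with an entry and in 1.91% of 27457 promoters of the same length. The short form, searched on both strands and contained in every full element, was in 6 of the 39 (15.4%) and in 22.0% of all promoters. Among members past the threshold, 2 higher and 3 lower genes had an entry. Of their windows 1, that of Smarca5, held the short form, starting 138 bases before the annotated start. Shortly after this match the letters ATG follow, and their reading frame meets no stop codon up to the end of the window. The annotated start of Smarca5 may therefore lie within coding sequence, and where its transcription begins was not tested. The AP-1 element TGANTCA, for which FOS and JUN proteins are known, was in the Smarcb1 window only (2.56% of member windows, against 7.33% of all promoters). These matches describe letters in short windows and show no binding; the member windows were richer in G and C, with a median of 64.0% against 52.3% over all promoters.

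The CHD proteins combine a motor with paired chromodomains, and 3 of the 7 members changed, 2 higher and 1 lower. These were 28.6% higher and 14.3% lower, beside 5.71% and 3.31% of all tested genes. Of 3 further CHD genes outside the pattern, 0 were higher and 0 lower without the block. Chd7 (ENSRNOG00000006689), mutated in CHARGE syndrome and active at enhancers, had 1069.8, 1464 and 1017 normalised reads in cLTP cultures, against 512, 512 and 424 in DMSO cultures. The lowest cLTP library was thus well above the highest DMSO library, and among the 46 members this was the largest fold change (2.43-fold, log2 fold change 1.28, SE 0.14, limma adjusted p = 0.000768). Chd1 (ENSRNOG00000014434), which binds histone H3 methylated at lysine 4 near active starts, had 786, 858 and 722 in cLTP cultures and 611, 607 and 506 in DMSO cultures, again without overlap. Chd1 rose 1.37-fold (adjusted p = 0.0247; 2.47e-05 with the block), and lost its call without cLTP culture 1 (0.1004), cLTP culture 2 (0.0888), DMSO culture 1 (0.0543) or DMSO culture 2 (0.0537). Chd8 (ENSRNOG00000025011), a gene mutated in some people with autism, had 1381, 1509 and 1236 in cLTP cultures and 2011, 1901 and 2068 in DMSO cultures. It fell to 0.688-fold with the groups apart (log2 fold change -0.54, SE 0.09, adjusted p = 0.00571).

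The other CHD members did not pass in limma without the block. Chd2, a close relative of Chd1, averaged 1927 ± 309.8 in cLTP and 1742 ± 90.0 in DMSO cultures, with cLTP culture 2 the highest at 2280.1 and the rest overlapping. Chd5, which is found mainly in the nervous system, averaged 2127 ± 227 in cLTP and 2296 ± 271 in DMSO cultures. Chd9 averaged 883 ± 78.8 in cLTP and 813 ± 5.11 in DMSO cultures. Both pairs of groups overlapped. Chd5 passed as lower with the block and equal totals together (limma adjusted p = 0.00112). Chd6 had 1243, 1304 and 1374 in cLTP cultures and 1486, 1362 and 1640.5 in DMSO cultures, where only cLTP culture 3 exceeded the lowest DMSO library. It passed, lower after cLTP, with the culture number as a block and not without it (adjusted p = 0.016 and 0.256).

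**Figure D2:**
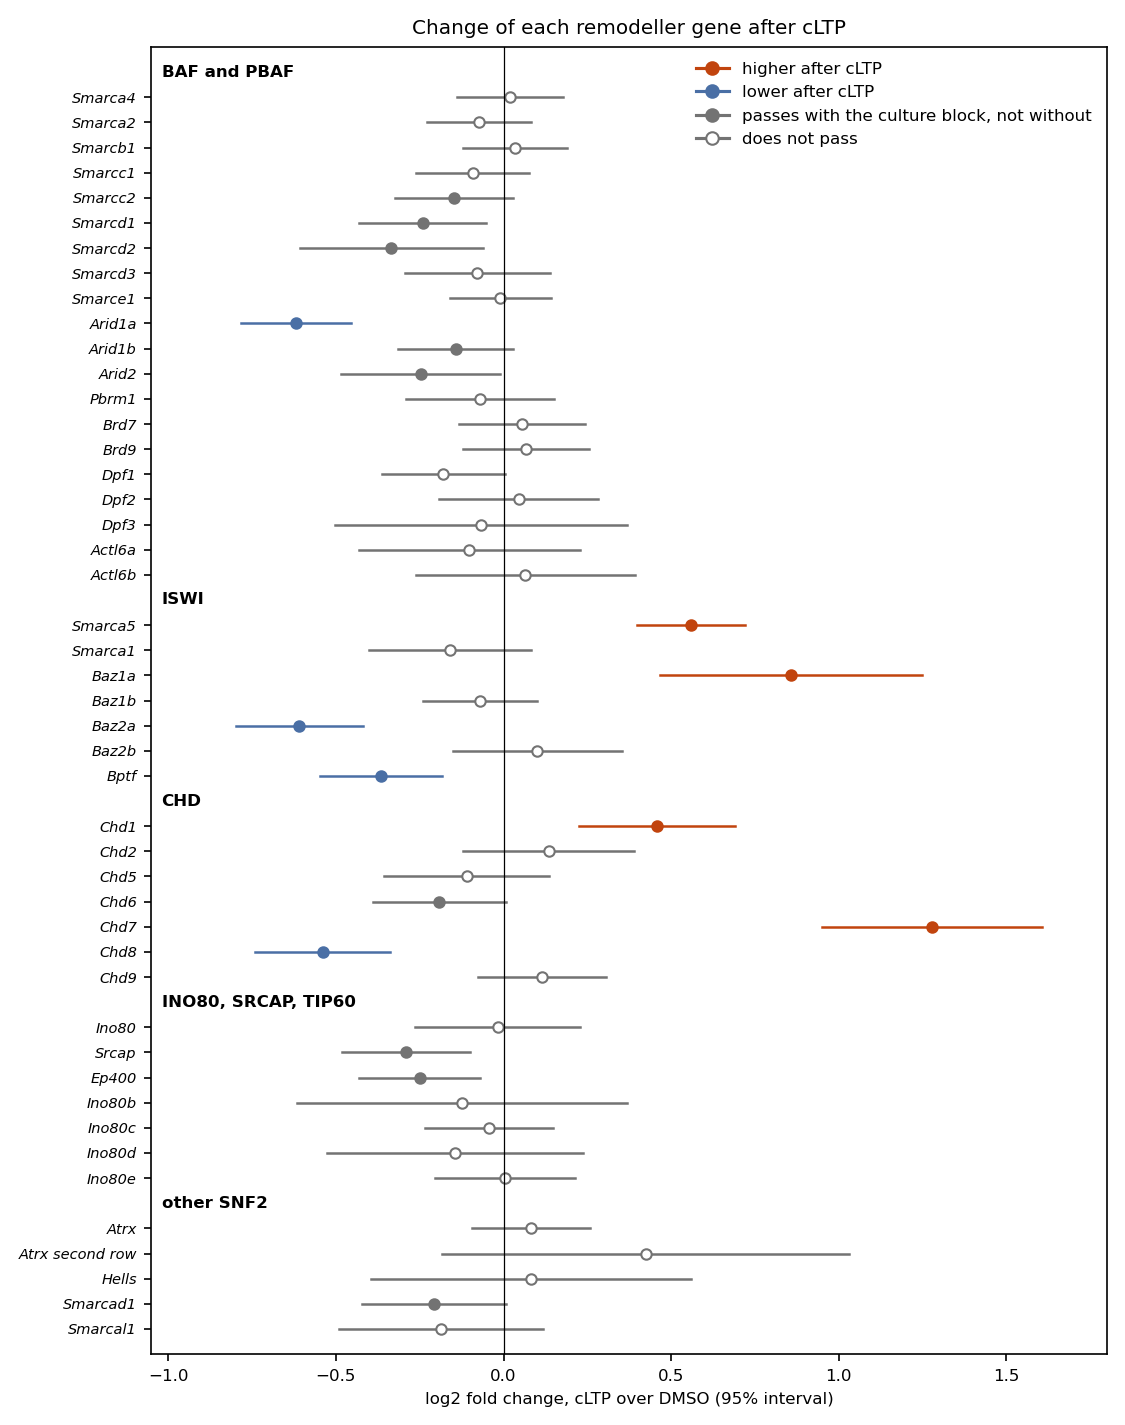
Log2 fold change of cLTP over DMSO for each of the 46 rows (points) with its 95% interval (lines), grouped by complex; filled red and blue points passed the test without the block, filled grey points with it but not without it, and open points in neither fit (both at the deposited scaling). The intervals are not adjusted for the number of genes tested. Of the 20 BAF intervals 4 exclude 0 (Arid1a, Smarcd1, Smarcd2 and Arid2), with Arid1a farthest out at -0.62. Smarcd1, Smarcd2 and Arid2 did not pass without the block (limma adjusted p = 0.125, 0.143 and 0.215). ISWI and CHD genes spread from -0.61 to 1.28.

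In the BAF and PBAF complexes, which slide and eject nucleosomes, Arid1a was the 1 member of 20 that passed the test without the block. That is 0% higher and 5% lower, beside 5.71% and 3.31% of all tested genes. With the block, 0 of the 20 were higher and 6 lower (30%), beside 12.9% and 10.7% of all tested genes. Arid1a (ENSRNOG00000006137), the large DNA-binding subunit that defines canonical BAF, had 1308, 1407 and 1365 normalised reads in cLTP cultures, against 1995, 2089 and 2183 in DMSO cultures. It fell to 0.651-fold with a wide gap between the groups (log2 fold change -0.62, SE 0.07, limma adjusted p = 0.000821). Its alternative Arid1b, which takes the same place in the complex, had 1633, 1632 and 1711 in cLTP cultures and 1832, 1716 and 1952 in DMSO cultures. The highest cLTP value lay just under the lowest DMSO value, and Arid1b passed with the block and not without it (0.906-fold, adjusted p = 0.0467 and 0.335).

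The motors of BAF and several core subunits did not pass at the deposited scaling, with or without the block; with the block and equal totals, Smarca2 (limma adjusted p = 0.00985) and Smarcc1 (0.00604) passed as lower. Smarca4 (BRG1) had 3043, 3140.3 and 3157 in cLTP cultures and 3069, 2990.2 and 3151 in DMSO cultures, which overlap almost entirely (log2 fold change 0.02, 95% interval -0.14 to 0.18). Smarca2 (BRM), its alternative, averaged 1279 ± 20.9 in cLTP and 1345 ± 46.1 in DMSO cultures. The core subunit Smarcb1 averaged 1032 ± 19.1 in cLTP and 1008 ± 28.9 in DMSO cultures, and Smarce1, which carries an HMG domain, averaged 1342 ± 13.5 in cLTP and 1351 ± 32.5 in DMSO cultures. The log2 intervals were -0.23 to 0.08 for Smarca2, -0.12 to 0.19 for Smarcb1 and -0.16 to 0.14 for Smarce1. Among the scaffold pair, Smarcc1 (BAF155) averaged 1048 ± 55.2 in cLTP and 1116 ± 35.5 in DMSO cultures and did not pass in either fit, whereas Smarcc2 (BAF170) had 2462, 2329.8 and 2553 in cLTP cultures and 2751, 2549 and 2842 in DMSO cultures and passed, lower after cLTP, with the block (adjusted p = 0.0254; 0.326 without it) and, with no block, after quantile normalization (0.0409).

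The actin-related and PHD finger subunits that are exchanged between progenitors and neurons did not pass at the deposited scaling, with or without the block. Actl6b, the actin-related subunit of neurons, averaged 621 ± 98.5 in cLTP and 592 ± 90.0 in DMSO cultures, and Actl6a, its counterpart in progenitors, averaged 143 ± 24.5 in cLTP and 152 ± 9.91 in DMSO cultures. Dpf1, a neuronal PHD finger subunit, had 509.5, 471 and 485 in cLTP cultures and 575, 521 and 565 in DMSO cultures; its groups were apart but it missed the threshold in both fits (adjusted p = 0.245; 0.0555 with the block) and passed with the block and equal totals together (0.00181). Dpf2 averaged 885 ± 119 in cLTP and 852 ± 34.8 in DMSO cultures, and Dpf3 averaged 58.6 ± 13.2 in cLTP and 60.4 ± 2.88 in DMSO cultures. Of the alternative Smarcd subunits, Smarcd1 had 777, 740.0 and 772 in cLTP cultures and 831, 895 and 987 in DMSO cultures, and Smarcd2 had 196, 162 and 151 in cLTP cultures and 212, 209 and 217 in DMSO cultures. Both were lower in every cLTP library than in any DMSO library and passed with the block (adjusted p = 0.00796 for Smarcd1 and 0.0243 for Smarcd2; 0.125 and 0.143 without it). With no block they also passed after scaling to equal totals (0.0379 and 0.0431), while Smarcd3 averaged 404 ± 38.6 in cLTP and 426 ± 17.4 in DMSO cultures and passed in neither.

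The PBAF subunits are Arid2, Pbrm1 and Brd7. Arid2 had 622, 766 and 591 in cLTP cultures and 746, 786 and 804 in DMSO cultures, with cLTP culture 2 inside the DMSO range, and passed with the block (adjusted p = 0.0169; 0.215 without it) and, with no block, when cLTP culture 2 was left out (0.0462). Pbrm1, which holds a row of bromodomains, averaged 1105 ± 140.3 in cLTP and 1154 ± 41.2 in DMSO cultures. It passed, as lower, only with the block and equal totals together (limma adjusted p = 0.0231). Brd7 averaged 877 ± 58.6 in cLTP and 844 ± 47.7 in DMSO cultures, and Brd9, the bromodomain subunit of the smaller non-canonical BAF complex, averaged 754 ± 48.0 in cLTP and 720.3 ± 40.5 in DMSO cultures; neither passed.

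INO80, SRCAP and TIP60 exchange histone variants in nucleosomes. Of their 7 members, 0 passed in limma without the block (2 at an unadjusted p under 0.05), 0 in edgeR and 1 in DESeq2. Of all tested genes, 5.71% were higher and 3.31% lower in limma without the block. The shares were 6.9% and 4.59% in edgeR, and 6.91% and 3.64% in DESeq2. With no block, 2 passed as lower in limma after equal totals, after quantile normalization or without cLTP culture 2. Beside these, 7.64% of tested genes were lower after equal totals and 4.61% after quantile normalization, and 382 of 17310 without cLTP culture 2. The ATPase Srcap, which deposits the variant H2A.Z, had 1743, 2091 and 1853 in cLTP cultures and 2297, 2265 and 2375 in DMSO cultures. Ep400, the motor of the TIP60 complex, had 1338, 1542 and 1350.1 in cLTP cultures and 1705, 1684 and 1634 in DMSO cultures. Both were lower in every cLTP library and passed with the block (adjusted p = 0.000845 for Srcap and 0.00227 for Ep400, against 0.0718 and 0.0965 without it). Srcap was the member that passed in DESeq2 (adjusted p = 0.0466). With no block, the adjusted p of Srcap was 0.0159 after equal totals, 0.0126 after quantile normalization and 0.0340 without cLTP culture 2, and that of Ep400 was 0.0156, 0.0200 and 0.0484 in the same fits. Ino80 itself averaged 575 ± 76.2 in cLTP and 579 ± 42.0 in DMSO cultures, and Ino80c, Ino80d and Ino80e, at means between 145 and 398 in either group, passed in neither fit. Ino80b averaged only 28.1 ± 2.30 in cLTP and 31.1 ± 5.91 in DMSO cultures, and its interval of -0.62 to 0.37 leaves room for a sizeable change at this depth.

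**Figure D3:**
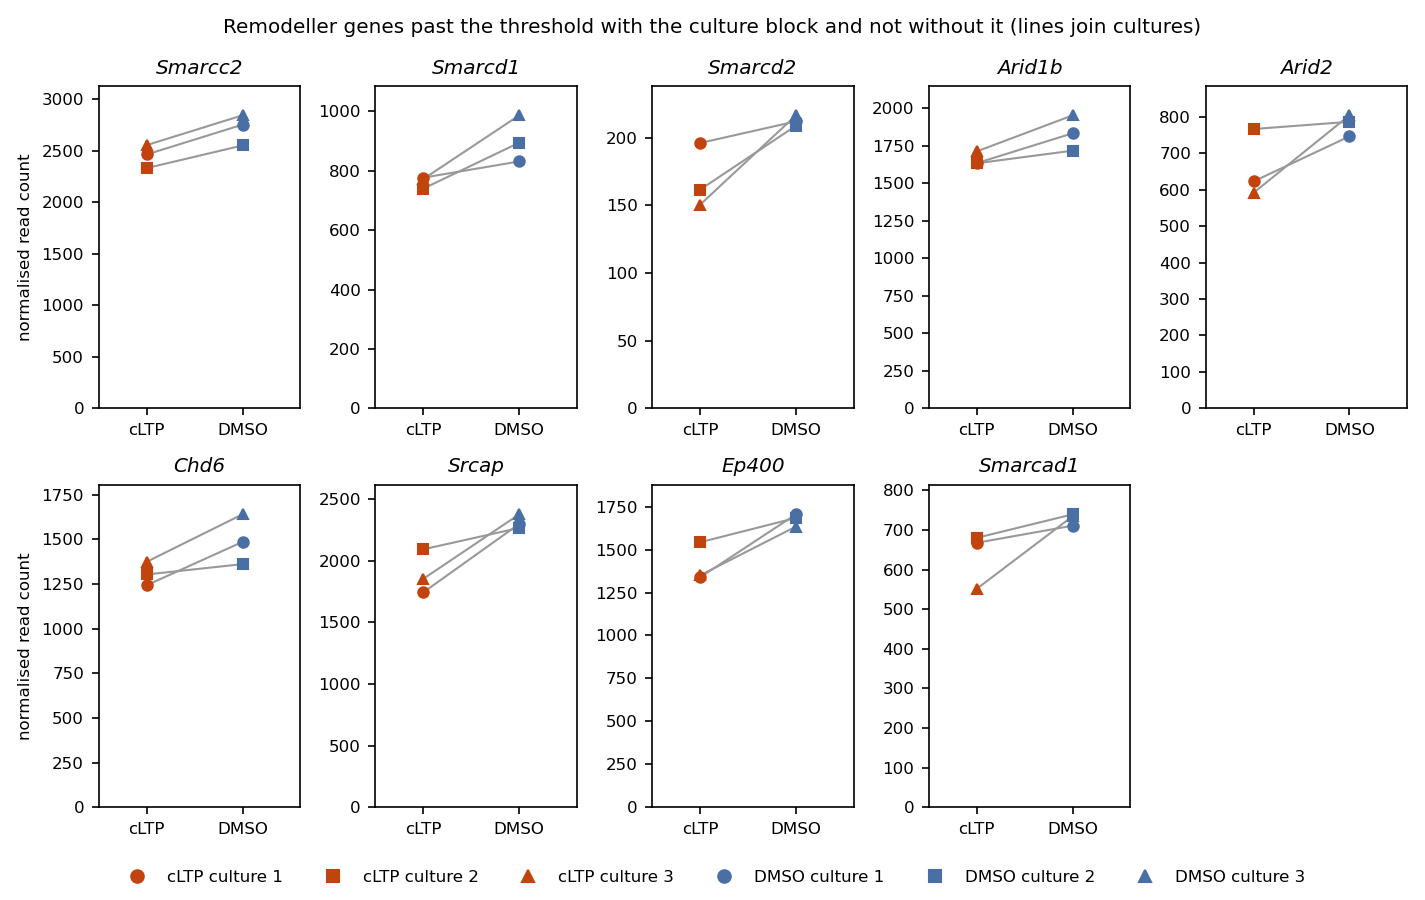
Normalised read counts (vertical axis, linear from 0) of the 9 remodeller genes that passed with the culture number as a block and not without it (deposited scaling), with cLTP on the left and DMSO on the right of each panel; grey lines join libraries with the same culture number. In each panel all 3 lines run upward from left to right, since each cLTP library lies under the DMSO library of its number; the lines of Smarcc2 are nearly parallel, and those of Smarcad1 differ, with culture 3 the steepest.

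Among the remaining ATPases, Atrx, which keeps repeats silent and is mutated in an X-linked intellectual disability, had 2154, 2379.6 and 2323 in cLTP cultures and 2204, 2034 and 2239 in DMSO cultures and did not pass (log2 fold change 0.08, 95% interval -0.09 to 0.26). A second row labelled Atrx (ENSRNOG00000046897) averaged 30.8 ± 4.25 in cLTP and 23.3 ± 6.94 in DMSO cultures, and how reads were divided between the rows is not known here. Smarcad1, which acts on heterochromatin after replication, had 667, 679.9 and 551 in cLTP cultures and 711, 739 and 735 in DMSO cultures; the groups were apart, and it passed with the block and not without it (adjusted p = 0.0373 and 0.253). Smarcal1, which repairs stalled replication forks, averaged 106 ± 13.9 in cLTP and 120.2 ± 4.03 in DMSO cultures. Hells, which is needed for DNA methylation and is high in dividing cells, was low in all libraries, at 25.9 to 31.5 in cLTP and 24.6 to 32.5 in DMSO cultures, where markers of dividing cells summed to 218 to 282 in cLTP and 277 to 315 in DMSO libraries.

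With the culture number as a block, 17 members passed: the 8 above and 9 more, and each of the 9 was lower after cLTP, with log2 fold changes from -0.33 to -0.14. The counts were 4 higher and 13 lower, which is 8.7% and 28.3% of members, beside 12.9% and 10.7% of all tested genes. In all 3 cultures the cLTP library lay below its DMSO partner for 18 members and above it for 9, and this was 39.1% and 19.6% of members, against 24.9% and 27.5% of tested genes. By library, 11 of the 46 members had every cLTP value under every DMSO value and 4 of 46 the reverse, beside 13.3% and 15% of tested genes. The balance depended on scaling. Equal totals lowered the median of all genes by 0.11 on the log2 scale. Without the block, 4 of the 46 members were then higher and 8 lower, beside 4.75% and 7.64% of tested genes. With the block, 4 of 46 were higher and 20 lower, beside 8.14% and 23.1%. With quantile normalization and no block the counts were 4 and 7 of 46, beside 5.18% and 4.61%. Under each of these scalings the called members include the 8 above. Of the 38 members not called without the block, 11 with small positive log2 fold changes were negative after equal totals, among them Smarca4, Smarcb1, Brd7, Brd9 and Atrx, and 7 of the 11 were negative after quantile normalization as well.

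Ratios of related genes within 1 library do not depend on the scaling between libraries, so 11 pairs were compared in this way. The log2 ratio of Chd7 to Chd8 was -0.37, -0.04 and -0.28 in cLTP cultures and -1.97, -1.89 and -2.28 in DMSO cultures, a 3.53-fold difference in the ratio. For Arid1a to Arid1b it was -0.32, -0.21 and -0.33 in cLTP cultures and 0.12, 0.28 and 0.16 in DMSO cultures, so the sign differed between the groups; since reads were not divided by transcript length, only the difference of -0.48 between groups can be read. The difference was 0.93 for Baz1a to Baz1b, 0.72 for Smarca5 to Smarca1, 0.32 for Chd1 to Chd2 and -0.71 for Baz2a to Baz2b. Smarca2 to Smarca4 differed by only -0.09, at -1.27, -1.27 and -1.31 in cLTP cultures and -1.18, -1.21 and -1.19 in DMSO cultures, yet without overlap. These 7 pairs were apart, and 6 of them contain a member called above, so they are not independent of those calls. The pairs Actl6a to Actl6b, Dpf2 to Dpf1, Smarcc1 to Smarcc2 and Smarcd1 to Smarcd3 overlapped. With 3 against 3 libraries an exact two-sided permutation test cannot go below p = 0.1, which each of the 7 reached (0.157 adjusted over the 11 pairs).

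**Figure D4:**
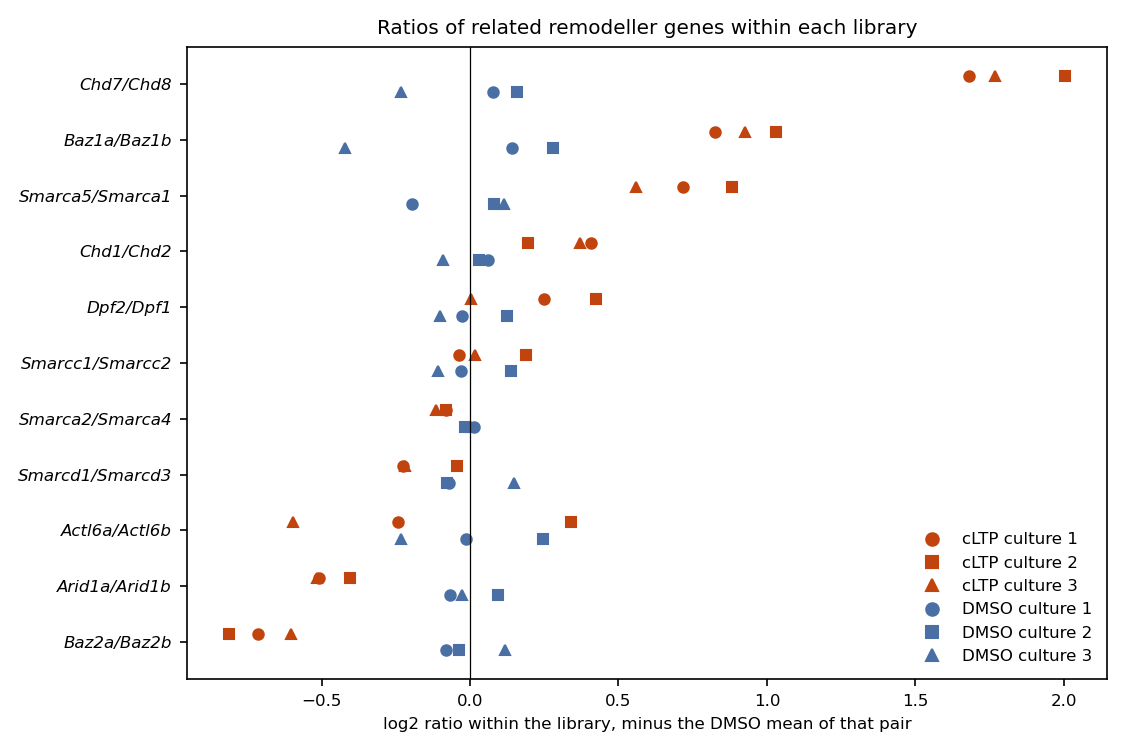
Log2 ratio of the 2 genes of each pair within each library, minus the DMSO mean of the pair (horizontal axis), with cLTP libraries above DMSO libraries in each row and marker shapes giving the culture number. The Chd7/Chd8 ratio lies farthest to the right in cLTP and Baz2a/Baz2b farthest to the left, while both groups of Actl6a/Actl6b intermingle.

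Of 59 further remodeller genes, 1 was higher and 6 were lower after cLTP without the block, and 4 were higher and 12 lower with it. These are 1.69% and 10.2% without the block, beside 5.71% and 3.31% of all tested genes, and 6.78% and 20.3% with it, beside 12.9% and 10.7%. Btaf1, an ATPase of the same SNF2 superfamily that strips the TATA-binding protein from DNA, averaged 2862 ± 279 in cLTP and 1022 ± 85.3 in DMSO cultures, and this 2.79-fold rise was larger than that of any member (limma adjusted p = 2.33e-05). Bicra and Bicral, alternative subunits of the Brd9-containing BAF complex, fell to 0.659-fold and 0.741-fold (adjusted p = 0.00372 and 0.0191). Rsf1, a partner of Smarca5, averaged 432 ± 38.4 in cLTP and 623 ± 53.4 in DMSO cultures (adjusted p = 0.0115). The INO80 subunit Nfrkb fell to 0.786-fold, the TIP60 subunit Brd8 to 0.790-fold and Ercc6, the ATPase of transcription-coupled repair, to 0.768-fold (adjusted p = 0.0158, 0.0369 and 0.0358). The calls of Btaf1 and Bicra held without any 1 library. The other 5 were each lost without DMSO culture 1 (adjusted p of 0.0527 to 0.126) and without DMSO culture 2 (0.0550 to 0.0886). All 5 were also lost in limma without the trend and robust settings (adjusted p of 0.0557 to 0.111). Bicral was also lost without cLTP culture 1 or 3 (0.0772 and 0.0581) and Nfrkb without cLTP culture 1 or 2 (0.0718 and 0.05002). Brd8 was also lost without cLTP culture 1 (0.152), cLTP culture 3 (0.0910), DMSO culture 3 (0.0935) or both libraries of culture 3 (0.0749), and Ercc6 without any 1 library (0.0621 to 0.105) or both of culture 3 (0.0898). The pattern leaves out Chd1l, Chd3 and Chd4. Of these, Chd4 averaged 3733 ± 233 in cLTP and 4336 ± 19.2 in DMSO cultures. Chd4 passed in limma with the block and not without it (adjusted p = 0.00267 and 0.132). Chd1l averaged 106 ± 13.8 in cLTP and 84.3 ± 16.3 in DMSO cultures and did not pass. None of 4 partners of Atrx and Hells passed in limma in either fit (1 at an unadjusted p under 0.05 without the block); those with the lowest p were Cbx5, at 507 ± 20.8 in cLTP and 575 ± 17.6 in DMSO cultures, and Cdca7, at 48.2 ± 14.1 in cLTP and 34.7 ± 6.89 in DMSO cultures.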

How the data were processed

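The samples are 3 cLTP and 3 DMSO cultures of rat hippocampus. Per the submitters' processing notes, bcl2fastq, STAR, DESeq2 and build rn6 were used. Their versions, the counter, its use of strand and the gene models are not known here, so reads of overlapping or near-identical genes may have been assigned in either way. Each deposited signal is a normalised read count, not divided by gene length. Dividing a column by what 1 read is worth (0.878 to 1.13) gave whole numbers, to within 0.01, for 100% of its values above 0. A floor of 3 reads equals 2.63 to 3.38, and covers counting error only.

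Because the table held normalised values and not raw counts, limma 3.58.1 (R 4.3.3; eBayes, trend, robust) was run on log2(value + 1), keeping 17315 genes that averaged 1 or more, among them all 46 members. Folds on this scale understate changes of low genes. P-values are two-sided, adjusted by Benjamini-Hochberg over all tested genes. On the recovered reads edgeR 4.0.16 called 1623 genes and DESeq2 1.42.0 called 1629. Same-numbered cultures deviated together (correlations across genes of 0.22, 0.30 and 0.54, each over 0.1), so numbers were taken to pair cultures, which the labels do not state. Unlike numbers gave 0.16 (cLTP 1 with DMSO 2) and 0.19 (cLTP 2 with DMSO 1), and -0.29 to -0.37 where 1 was culture 3, so the check parts culture 3 from the others more clearly than culture 1 from 2; the blocked value is given where it changes a call. The labels call the cultures biological replicates but name neither litters nor days, and p-values measure only how far these cultures vary. Within groups, libraries varied beyond counting noise, with a chi-square of 3.84 to 18.8 per degree of freedom. Members past the threshold in either fit are given by library; of the other lists, all genes past the threshold without the block or, where there were none, the 2 with the lowest p. Members, lists and pairs were chosen with earlier results of these data known. The fits were tested on simulated counts with the same dispersion for every gene and no culture effect. That test therefore cannot show how the fits, and the block above all, behave on these cultures. Promoters are from RefSeq (GRCr8), matched by symbol for 39 of 45 symbols.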

Additional observations from a re-analysis of the deposited data

How the results depend on the processing

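The 8 member calls kept their direction under all 18 alternatives. Members called higher (4) became 2 with eBayes without trend and robust (Baz1a and Chd1 lost; Bptf, lower, was lost too, leaving 3 lower) and 2 to 4 without 1 library (lowest without cLTP culture 2). Members called lower (4) became 13 with the replicate block, 20 with the replicate block and equal totals, 8 with equal totals, 7 with quantile normalization and 3 to 7 without 1 library (highest without cLTP culture 2). All genes called (1561) became 4075 with the replicate block, 5408 with the replicate block and equal totals, 973 with eBayes without trend and robust, and 953 to 1408 without 1 library. Changing the pseudocount or the filter on low values altered none of the member calls. Among members not called, the sign of the log2 fold change differed from the fit as reported for 11 after equal totals, 7 after quantile normalization, 1 in edgeR, 0 to 4 without 1 library and 5 without culture 3. Low members (Ino80b, Hells, Dpf3 and the second Atrx row) have wide intervals, so changes within those intervals may have gone undetected at this depth.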
